A study of Mus musculus with 96 samples.

Results

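The p53 target genes are 10 genes whose transcription is raised by p53, the transcription factor encoded by Trp53 in the mouse: Cdkn1a, Mdm2, Ccng1, Trp53inp1, Phlda3, Bax, Bbc3, Sesn2, Eda2r and Zmat3. They were taken by name, and all 10 were found by their Ensembl identifiers among the 55335 genes of the count table. They were followed in 96 libraries of sorted nuclei from mouse visual cortex, which fall into 24 groups. In 48 libraries the nuclei were VIP nuclei, that is, nuclei of interneurons that make vasoactive intestinal peptide, and in the other 48 they were total nuclei of the same tissue.

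All mice carried VIP flp/wt, so that the Flp recombinase is made in VIP cells, and were homozygous for a floxed stretch of the Igf1 gene's enhancers: Igf1-E1 fl/fl, Igf1-E23 fl/fl or Igf1-E123 fl/fl, called E1, E23 and E123 here. At 55 to 60 days of age the visual cortex was injected with AAV-Syn1-fDIO-mScarlet-KASH-2a-Cre or with its control, AAV-Syn1-fDIO-mScarlet-KASH-2a-dCre. Both are adeno-associated viruses whose neuronal Syn1 cassette is turned on by Flp, and the labels name the Cre animals KO and the dCre animals Ctrl. From 3 days later the mice lived in darkness for 10 to 12 days, and the cortex was then taken in the dark or after 1 h of light. Each combination of line, virus and light had 3 to 5 libraries per fraction: 3 for dark E1 dCre and dark E123 Cre, 5 for dark E1 Cre and lit E1 dCre, and 4 for each of the others. The comparison of Cre with dCre serves as a check for a stress response to the recombinase. The labels give 50 to 100 sorted nuclei per library and 17 PCR cycles. No line without a floxed enhancer is part of the data, so an active Cre and the loss of the enhancer cannot be told apart. Only VIP cells should carry the virus product, which makes the total nuclei a sample in which most nuclei lack it.

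As background, p53 is kept low in unstressed cells by MDM2, a ubiquitin ligase that p53 itself induces, and is stabilised by ATM, ATR and related kinases when DNA is broken. Stabilised p53 binds DNA near its targets at a pair of similar short elements. The targets then stop the cell cycle (Cdkn1a), restrain p53 (Mdm2, Ccng1), restrain growth signals (Phlda3, Sesn2), or open the route to apoptosis through mitochondria (Bax, Bbc3). In neurons, which do not divide, the same genes are used as a readout of DNA damage, and several are also reached by other signals: Cdkn1a, for example, is also induced by growth factor and stress pathways.

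The promoters of the members with the smallest p-values in the comparison of Cre with dCre are shown, whether or not a p53 site was found in them. Such a site is the sequence by which these genes are usually recognised as targets. RefSeq's promoter table on build GRCm38.p6 gave 11 windows of 250 bases before to 50 bases after a transcription start for 8 of the 10 members. In these windows a p53 consensus of 20 bases was searched on both strands. It is a pair of elements of 10 bases each without a spacer, each made of purines, then the core C, A or T, A or T, G, then pyrimidines. Every C and G of the cores had to match, and mismatches were counted at the other positions. In the lines that follow, capitals mark the best match with at most 3 mismatches, and every sequence runs 5′ to 3′ on the strand of the gene.
Cdkn1a, chr17:29090729-29091028, plus strand: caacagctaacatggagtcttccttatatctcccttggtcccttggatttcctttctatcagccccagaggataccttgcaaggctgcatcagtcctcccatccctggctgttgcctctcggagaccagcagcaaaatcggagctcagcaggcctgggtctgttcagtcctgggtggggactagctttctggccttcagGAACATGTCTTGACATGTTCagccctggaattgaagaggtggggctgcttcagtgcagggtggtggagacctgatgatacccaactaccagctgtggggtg
Ccng1, chr11:40755237-40755536, minus strand: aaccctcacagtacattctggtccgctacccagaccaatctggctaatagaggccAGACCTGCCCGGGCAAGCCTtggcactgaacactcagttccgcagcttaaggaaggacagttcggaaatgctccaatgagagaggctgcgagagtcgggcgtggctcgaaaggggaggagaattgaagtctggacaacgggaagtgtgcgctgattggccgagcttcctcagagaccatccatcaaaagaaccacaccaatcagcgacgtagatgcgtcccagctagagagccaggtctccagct
Phlda3, chr1:135765835-135766134, plus strand: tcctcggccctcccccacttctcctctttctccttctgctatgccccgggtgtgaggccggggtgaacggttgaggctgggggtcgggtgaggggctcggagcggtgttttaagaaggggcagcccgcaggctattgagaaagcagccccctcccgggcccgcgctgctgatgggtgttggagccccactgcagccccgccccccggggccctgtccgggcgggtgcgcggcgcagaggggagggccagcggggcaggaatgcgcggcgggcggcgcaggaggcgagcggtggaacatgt
Bax, chr7:45466849-45467148, minus strand: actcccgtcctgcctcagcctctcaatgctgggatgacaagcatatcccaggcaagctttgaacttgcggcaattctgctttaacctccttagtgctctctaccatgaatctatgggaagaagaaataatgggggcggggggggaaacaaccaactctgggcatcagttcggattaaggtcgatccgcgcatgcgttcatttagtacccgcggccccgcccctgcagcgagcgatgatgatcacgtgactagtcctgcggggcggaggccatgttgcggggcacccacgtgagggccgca

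The Cdkn1a window shown, 1 of 2 for this gene, holds a match with 1 mismatch that starts 51 bases before its transcription start, at chr17:29090928-29090947. The other Cdkn1a window, chr17:29093519-29093818, holds none. The Ccng1 window also holds a match with 1 mismatch, 195 bases before the start, at chr11:40755462-40755481. One of the 3 windows of Bbc3 holds a weaker match with 3 mismatches, 97 bases before the start, at chr7:16309486-16309505. Of 32851 promoters of this length, 22 (0.067%) hold a match with at most 1 mismatch and 453 (1.38%) one with at most 3. In the windows of Phlda3, Bax, Mdm2, Sesn2 and Eda2r no such letters were found, which says nothing of sites elsewhere in those genes. The motif TGACGTCA, which CREB can bind, was in none of the 11 windows and is in 1.79% of all promoters. The motif TGANTCA, which AP-1 can bind, was likewise in none of them and is in 7.81% of all promoters.

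On build GRCm38, Cdkn1a lies at chr17:29090976-29100727 on the plus strand, Trp53inp1 at chr4:11156431-11174379 (plus), Phlda3 at chr1:135766119-135769136 (plus) and Bbc3 at chr7:16308393-16318205 (plus). On the minus strand are Mdm2 at chr10:117688875-117710758, Ccng1 at chr11:40748552-40755311, Bax at chr7:45461697-45466898, Sesn2 at chr4:132492032-132510501, Eda2r at chrX:97333840-97377216 and Zmat3 at chr3:32334792-32366014. All are annotated as protein coding. Bax shares 915 bases with the gene model Gm45808 and Sesn2 6089 bases with Gm12981, both on the same strand. AC167363.2 lies across 1046 bases of Cdkn1a on the other strand. Whether the counting used strand is not given in the sources used here, so reads from that stretch of Cdkn1a cannot be told apart. For Bax and Sesn2 the strand alone would not tell the shared reads apart.

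Library totals ran from 1559883 to 9122515 counts in VIP nuclei and from 1881731 to 8972526 in total nuclei. The genes that define VIP cells and GABAergic neurons matched the labels: all 9 VIP markers and all 6 GABAergic markers were higher in VIP than in total nuclei, and all 10 excitatory, 9 oligodendrocyte and 8 microglial markers were lower. Igf1, whose enhancers are floxed, had a median of 663 CPM (counts scaled to a common library size) in the 24 dCre VIP libraries (262 to 969) and of 373 CPM in the 24 Cre libraries (241 to 806). Its log2 difference, Cre minus dCre, was -0.61 ± 0.10 (SE; edgeR's quasi-likelihood test, adjusted p = 0.000949), and the ranges overlap. Here and below CPM values are scaled by edgeR's TMM factors within a fraction, and an adjusted p under 0.05 over all genes tested is called a change. The list of vascular markers, called endothelial here, also holds the pericyte genes Pdgfrb and Rgs5. It was not lower as a whole in VIP nuclei. The medians of Pdgfrb (3.05 CPM in VIP, 0.485 in total nuclei), Rgs5, Pecam1 and Tek were higher there. That of Flt1 was lower, and those of Cldn5, Vwf and Kdr were 0 in both fractions. In tissue sorted in bulk, fewer cells of a type and less RNA per cell cannot be told apart. The labels call the replicates biological but name no animals, so the p-values measure the spread between these libraries.

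Libraries also differed in a way that touches the members. The balance of long against short genes, taken per library as the difference in mean log2(CPM + 1) between protein-coding genes over 100 kb and those under 10 kb, was 3.81 ± 0.68 (SD, n = 3) in dark E1 dCre VIP nuclei and 3.87 ± 0.52 (n = 4) in dark E123 dCre VIP nuclei. In the 10 other VIP groups its mean lay between 2.36 and 3.46. The dark dCre libraries, which are the reference both for Cre in the dark and for light with dCre, therefore stand apart in 2 of the 3 lines, and the results that rest on them are given with this in view. A second library that stands apart, replicate 1 of lit E123 Cre VIP nuclei, is described after the comparison of Cre with dCre.

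Per kilobase of exon, Bax was the most abundant member and Eda2r the least. On one scale over all 96 libraries, mean levels in VIP nuclei were 20.1 CPM per kb for Bax, 13.5 for Mdm2, 6.37 for Ccng1, 3.80 for Zmat3, 2.36 for Cdkn1a, 2.07 for Phlda3, 1.85 for Sesn2, 1.31 for Trp53inp1, 0.540 for Bbc3 and 0.0297 for Eda2r. In total nuclei the first 3 places were the same. Eda2r, a receptor of the tumour necrosis factor family, was at 0 in 43 of 48 VIP libraries and in 36 of 48 total libraries and did not pass the count filter in either fraction. Its one high value, 58 counts or 6.52 CPM, was in replicate 4 of dark E1 Cre VIP nuclei. The other 9 members were tested in both fractions, among 20585 genes in VIP nuclei and 21213 in total nuclei.

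**Figure D1:**
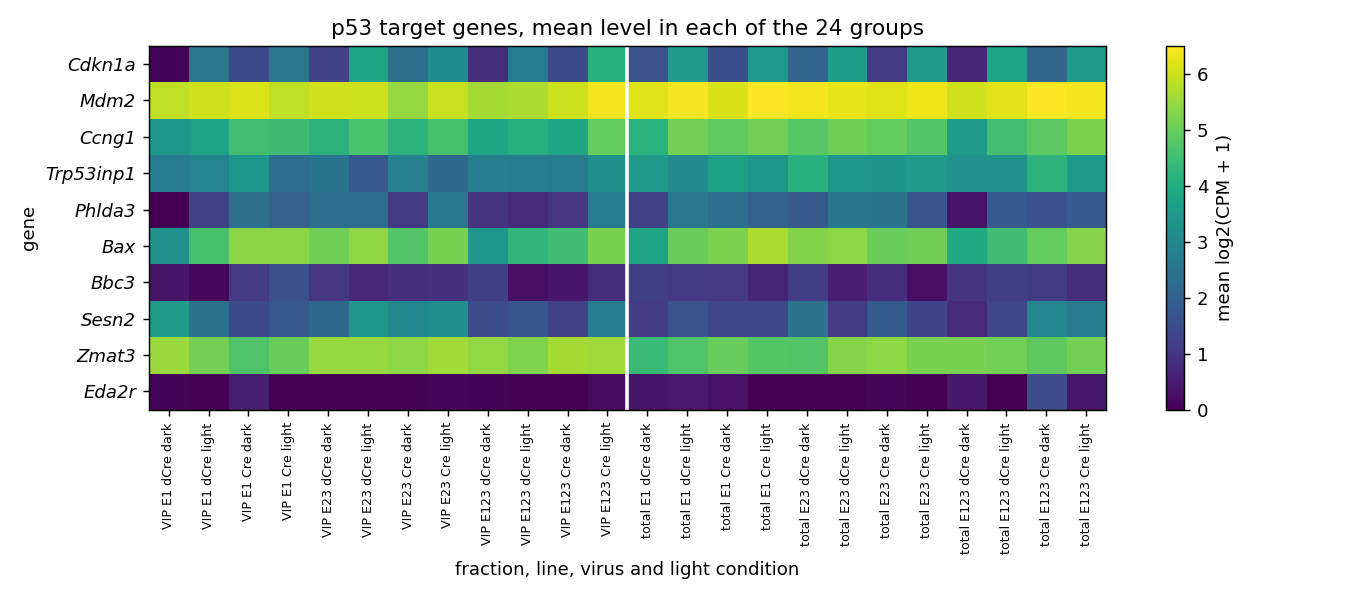
Mean level of each member (rows) in each of the 24 groups (columns), as log2(CPM + 1), with VIP groups and total groups side by side. Bax, Mdm2, Zmat3 and Ccng1 are the brightest rows in both fractions, Eda2r is dark and close to 0 in nearly all groups, and Cdkn1a and Phlda3 differ most between groups.

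In VIP nuclei, none of the 9 tested p53 targets passed the threshold between Cre and dCre when the 3 lines and both light conditions were averaged (0 of 9, where 3.74% of all genes tested passed). The largest log2 differences were those of Phlda3 and Cdkn1a, both with wide errors. Of the 9 members, 8 had a positive difference, and their median was 0.52 against 0.04 over all genes. At an unadjusted p under 0.05 the count was 4 of 9, all higher with Cre, where 20.0% of all genes tested passed that looser limit and 11.8% did upward. DESeq2 called 1 of the 9, Cdkn1a (adjusted p = 0.0249), and 1503 genes in all, where edgeR called 769.

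Cdkn1a, which encodes the cyclin-dependent kinase inhibitor p21, lay between 0 and 19.4 CPM in the 24 dCre VIP libraries with a median of 2.51, and between 0 and 113 CPM in the 24 Cre libraries with a median of 4.02. The groups overlapped over nearly their whole ranges, apart from 1 Cre library. The log2 difference was 1.56 ± 0.52 (SE; adjusted p = 0.0695, unadjusted p = 0.00394 in edgeR's quasi-likelihood test). Dark E1 dCre, a reference group of this average, held 1 count of Cdkn1a in all (mean 0.0546 CPM).

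Phlda3, whose protein blocks the kinase Akt at the membrane, lay between 0 and 9.0 CPM with a median of 1.28 in dCre libraries and between 0 and 11.5 CPM with a median of 4.06 in Cre libraries. Its log2 difference was 1.68 ± 0.53 (adjusted p = 0.0562, unadjusted p = 0.00252 in edgeR's test). Bax, the pore-forming protein of the mitochondrial outer membrane, had medians of 24.6 CPM with dCre (1.64 to 60.4) and 34.0 CPM with Cre (10.4 to 64.9), a log2 difference of 0.57 ± 0.21 (adjusted p = 0.113, edgeR). Ccng1, the cyclin G1 that works with MDM2, had medians of 15.6 CPM with dCre (4.19 to 47.0) and 19.9 CPM with Cre (5.64 to 96.2), a log2 difference of 0.52 ± 0.24 (adjusted p = 0.218, edgeR). For all 3 genes the ranges of the 2 viruses overlapped.

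The other tested members gave smaller or less certain values. Mdm2, the negative regulator of p53, differed by 0.20 ± 0.16 (adjusted p = 0.539, edgeR), with medians of 59.2 CPM with dCre and 60.2 CPM with Cre. Bbc3, which encodes the apoptosis trigger PUMA, differed by 1.26 ± 0.73 (adjusted p = 0.344, edgeR) at levels of 0 to 6.16 CPM. Trp53inp1, a p53-induced nuclear protein that also acts in autophagy, differed by 0.45 ± 0.39, and Sesn2, the leucine sensor sestrin 2, by 0.05 ± 0.49. Zmat3, a p53-induced RNA-binding protein that alters splicing, was the only member with a negative value, -0.10 ± 0.15.

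Split by light, 1 member was called, Cdkn1a in the dark. There, Cdkn1a ran from 0 to 5.01 CPM in 11 dCre VIP libraries with a median of 0.266, and from 0 to 14.2 CPM in 12 Cre libraries with a median of 2.5. The log2 difference over the 3 lines was 2.66 ± 0.82 (adjusted p = 0.0414, edgeR), and it was the only one of 9 members called (1 of 9, where 6.11% of all genes tested passed). This averaging over the dark groups was chosen after values had been seen. The call was lost without replicates 1 and 2 of dark E1 and dark E123 dCre (2.96, adjusted p = 0.702) and with the balance of long and short genes as a covariate (2.18, adjusted p = 0.813), and it held in 11 of 23 fits that each left out 1 library. Without replicate 3 of dark E123 Cre, which had 10.2 CPM, the difference was 1.52 (adjusted p = 0.414) in the dark and 0.99 (adjusted p = 0.369) over both light conditions. In the light, Cdkn1a had medians of 9.31 CPM with dCre and 8.43 CPM with Cre, a log2 difference of 0.47 ± 0.64 (adjusted p = 1.00, edgeR), and no member was called (0 of 9, where 0.00486% of all genes passed, and Bbc3 alone had an unadjusted p under 0.05, as 5.60% of all genes did). Without replicate 1 of lit E123 Cre, described below, Cdkn1a in the light turned to -0.19, Bbc3 went from 2.52 to 1.44 (unadjusted p = 0.179, edgeR), and no member had an unadjusted p under 0.05. The difference between both effects was -2.19 ± 1.02 for Cdkn1a (adjusted p = 0.511, edgeR) and was not called.

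**Figure D2:**
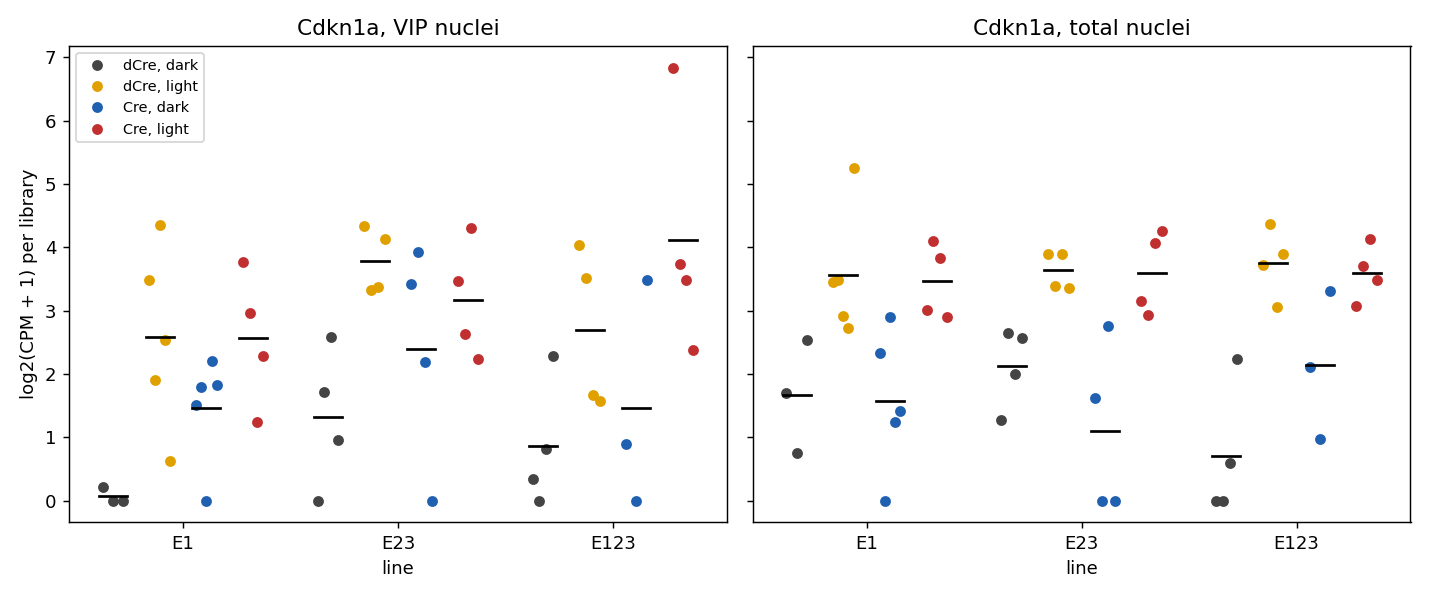
Cdkn1a as log2(CPM + 1) in every library, VIP nuclei and total nuclei in separate panels, grouped by line and coloured by virus and light (grey dCre dark, orange dCre light, blue Cre dark, red Cre light). The bar is the group mean. Lit group means lie above the dark ones of the same line and virus in both fractions. In VIP nuclei single lit and dark libraries overlap except in E1 dCre and E23 dCre, and 1 lit E123 Cre VIP library reaches 113 CPM.

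By line, 1 of 54 pairs of a member and a contrast was called, where 1.53% of all gene and contrast pairs were, and 8 of 54 had an unadjusted p under 0.05, where 10.1% of all pairs did. The called pair was Phlda3 in dark E1 VIP nuclei. It had 0, 0 and 0 CPM in the 3 dCre libraries and 4.91, 0.767, 6.42, 7.31 and 5.58 CPM in the 5 Cre libraries, so that every Cre library was above every dCre library. With a floor of 3 counts over the dCre group, Phlda3 was at least 26.9-fold higher with Cre (adjusted p = 0.0113, edgeR). The Bax libraries of the same contrast had 1.64, 9.22 and 34.0 CPM with dCre and 34.2, 30.9, 36.5, 64.0 and 44.6 CPM with Cre, which overlapped only at the highest dCre library's value, and a log2 difference of 1.49 ± 0.57 (adjusted p = 0.0829, edgeR). Cdkn1a had 0.164, 0 and 0 CPM with dCre and 1.84, 2.46, 0, 3.60 and 2.53 CPM with Cre in these libraries (adjusted p = 0.0823, edgeR). Replicates 1 and 2 of this dCre group are among the libraries with the highest balance of long genes. The call of Phlda3 was lost without replicate 1 (adjusted p = 0.0936) or replicate 2 (adjusted p = 0.0655) of dark E1 dCre. Without both of them and the same replicates of dark E123 dCre, none of the 54 pairs was called. With only the 2 groups of each contrast in the fit none was called either, and Phlda3 had an adjusted p of 0.0593 (edgeR). The part of that balance in the result was not tested further.

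In E23 and E123 the members differed less clearly in the dark. Phlda3 had 4.65, 6.42, 3.68 and 2.49 CPM in dark E23 dCre libraries and 0, 4.9, 2.59 and 0 CPM in dark E23 Cre libraries, a tendency in the opposite direction that overlapped and was not called. The difference of the Cre effect on Phlda3 between E1 and E23 was 4.61 ± 1.35 (unadjusted p = 0.00131, adjusted p = 0.136, edgeR), and no member was called in this difference between lines (0 of 9, where 0.0486% of all genes were). Sesn2 had 4.76 CPM or less in every dark E23 dCre library and 5.94 CPM or more in every dark E23 Cre library, without being called. Its mean was lower with Cre in dark E1 (3.80 CPM, against 11.8 with dCre) and in dark E123 (1.54 against 2.17), with overlap in both. In all, every Cre library lay above every dCre library in 5 of the 54 pairs and below in 0, where 2.98% and 2.76% of all pairs did.

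In lit E123 VIP nuclei 1 library set most of the difference in 6 of the 9 tested members. Mdm2 had 58.3, 50.3, 61.4 and 36.3 CPM in the 4 dCre libraries and 344, 43.4, 58.0 and 51.6 CPM in the 4 Cre libraries. Replicate 1 with Cre was far above all others, and the other 3 lay within the dCre range. The log2 difference was 1.27 ± 0.39 (unadjusted p = 0.00220, adjusted p = 0.557, edgeR) and became -0.02 without that replicate. Cdkn1a, Ccng1, Trp53inp1, Bbc3 and Sesn2 went from values between 1.25 (Ccng1) and 2.80 (Bbc3) to values between -0.45 (Bbc3) and 0.33 (Ccng1). Phlda3 (2.48) and Bax (0.91) moved less, to 1.97 and 0.85, and Zmat3 was at 0.20 and then -0.03. None of the 9 was called with or without that library.

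The same library, replicate 1 of lit E123 Cre VIP nuclei, had the highest value of all 48 VIP libraries for 7 of the 9 tested members. Cdkn1a reached 113 CPM there, where the next library had 19.4, and Mdm2 reached 344 CPM, where the next had 97.3. Trp53inp1 was at 74.8 CPM against 23.5 in the next library, and Sesn2 at 34.6 against 16.2. Ccng1 (96.2 against 80.2), Phlda3 (11.5 against 9.70) and Bbc3 (6.16 against 5.39) were highest by less, while Bax (40.2 CPM) and Zmat3 were within the range of the other libraries. Of 26 other known p53 targets that were tested, 9 were highest there too, among them Btg2, an antiproliferative gene, at 79.3 CPM against 29.8 in the next library, and Pidd1, a scaffold of the caspase-2 complex, at 17.2 against 5.48. Of 11 genes of the integrated stress response, 4 were highest there (Atf3, Ddit3, Ppp1r15a and Chac1), as were 0 of 17 genes of double-strand break repair and 0 of 16 of the BCL2 family and caspases. Trp53 itself was also highest there, at 39.1 CPM against 31.4.

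This library had the highest value for 1.91% of all genes tested, within the range over VIP libraries of 0.534% to 7.34% with a median of 1.71%. No other VIP library was highest for more than 1 member. The total-nuclei library of the same group and number was highest among total libraries for 0 of 9 members, although for 5.43% of all genes. The high library's total was 3467000 counts, its VIP markers summed to 11010 CPM, the lowest of all VIP libraries, and its excitatory markers to 424 CPM, the highest of the Cre libraries. The part of these in the result was not tested. No test was made of this library against the others, since it was picked for its values. Without it, the log2 differences of Cre against dCre over all lines were 1.24 for Cdkn1a (adjusted p = 0.137), 1.6 for Phlda3 (adjusted p = 0.0704), 0.56 for Bax (adjusted p = 0.125), 0.36 for Ccng1 (adjusted p = 0.409) and -0.01 for Mdm2 (edgeR). Bbc3 went from 1.26 to 0.72, Trp53inp1 from 0.45 to 0.13 and Sesn2 from 0.05 to -0.21. Positive differences then numbered 6 of 9, and the value of Ccng1 was the median of the 9. None of the 9 was called, where 772 of 20585 genes were. At an unadjusted p under 0.05 the count was 3 of 9. With the library kept 20.0% of all genes passed that limit, and the share without it was not counted.

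**Figure D3:**
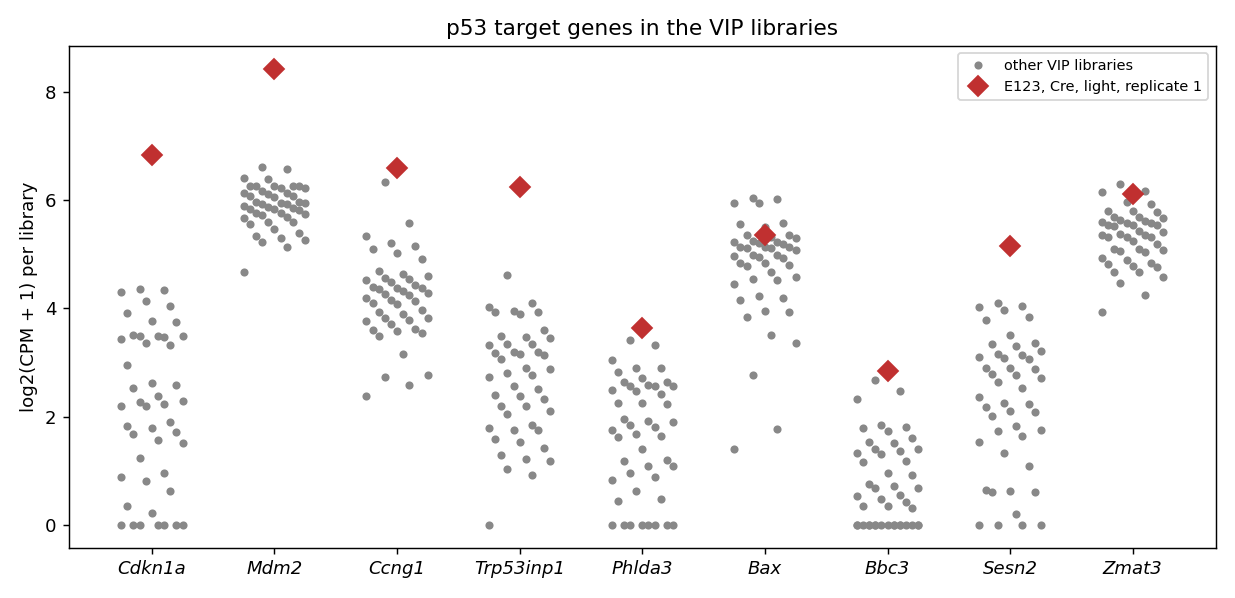
Level of the 9 tested members in each of the 48 VIP libraries as log2(CPM + 1), with 1 column of points per gene. The red diamond is replicate 1 of lit E123 Cre nuclei, which is the top point for Cdkn1a, Mdm2, Ccng1, Trp53inp1, Phlda3, Bbc3 and Sesn2 but not for Bax or Zmat3.

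In total nuclei, where most cells should lack the virus product, no member was called between Cre and dCre (0 of 9 by edgeR and by DESeq2, where 0.0283% of all genes were by edgeR). At an unadjusted p under 0.05 the count was 2 of 9, where 10.6% of all genes passed. Bax had the smallest p-value of the members. It lay between 8.33 and 60.3 CPM with a median of 26.5 in the 24 dCre libraries, and between 20.5 and 58.7 CPM with a median of 39.0 in the 24 Cre libraries. The log2 difference, 0.53 ± 0.14, was close to that in VIP nuclei in size (unadjusted p = 0.000397, adjusted p = 0.164, edgeR). It was called without replicate 3 of dark E1 dCre (0.58, adjusted p = 0.0202). Cdkn1a differed by 0.13 ± 0.37 in total nuclei, with medians of 6.04 CPM with dCre and 6.54 CPM with Cre. By line, Bax was called in dark E1 total nuclei (1 of 9, where 2.78% of all genes were). It had 12.1, 9.49 and 18.5 CPM in the 3 dCre libraries and 35.0, 29.1, 44.2, 39.6 and 34.1 CPM in the 5 Cre libraries, without overlap. The log2 difference was 1.44 ± 0.37 (adjusted p = 0.0294, edgeR). The balance of long and short genes was 3.58 ± 0.71 (SD, n = 3) in these dCre libraries and 2.53 ± 0.16 (n = 5) in the Cre libraries; its part in the result was not tested. Without replicates 1 and 2 of dark E1 and dark E123 dCre the difference of Bax was 1.00 and was not called (adjusted p = 1.00). It was not called without dCre replicate 1 (adjusted p = 0.292) or 2 (0.310), or Cre replicate 1 or 3 (0.0554 and 0.0555, edgeR).

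The Cre effect in VIP nuclei minus that in total nuclei was called for none of the 10 members (0 of 10 by edgeR and by DESeq2, where 0.0174% of all genes were by edgeR, and 2 of 10 at an unadjusted p under 0.05, as 5.84% of all genes). Its largest values were 1.90 ± 0.91 for Bbc3 (unadjusted p = 0.0391) and 1.43 ± 0.66 for Cdkn1a (unadjusted p = 0.0322, edgeR), and without the high library they were 1.36 (unadjusted p = 0.135) and 1.10 (unadjusted p = 0.0866).

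Light changed 1 p53 target in VIP nuclei: Cdkn1a rose after 1 h of light (1 of 9, where 5.99% of all genes tested passed). Over the 25 lit VIP libraries Cdkn1a lay between 0.537 and 113 CPM with a median of 9.31, and over the 23 dark ones between 0 and 14.2 CPM with a median of 0.934. The lit libraries were higher on the whole, with overlap in the lower part of their range. The log2 difference averaged over lines and viruses was 2.83 ± 0.54 (adjusted p = 0.000596, edgeR), and it was 2.5 (adjusted p = 0.00191) without the high E123 library.

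By virus, the log2 response was larger with dCre than with Cre, but the difference between them was not called. In E1, Cdkn1a had 0.164, 0 and 0 CPM in the dark and 10.2, 2.73, 19.4, 4.78 and 0.537 CPM in the light, with every lit library above every dark one. In E23 it had 0, 2.28, 5.01 and 0.934 CPM in the dark and 19.1, 8.98, 9.31 and 16.6 CPM in the light, again without overlap. In E123 it had 0.266, 0, 0.752 and 3.89 CPM in the dark and 15.4, 10.4, 2.19 and 1.97 CPM in the light, with overlap. The mean over the 3 lines was 3.92 ± 0.84 (adjusted p = 0.00423, edgeR), the only member called with dCre (1 of 9, where 6.27% of all genes were). Without replicates 1 and 2 of dark E1 and dark E123 dCre the adjusted p was 0.229.

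With Cre, the dark libraries were not as uniformly low. Cdkn1a had 1.84, 2.46, 0, 3.60 and 2.53 CPM in dark E1 Cre nuclei and 12.7, 6.79, 1.37 and 3.85 CPM in lit ones. It had 9.75, 14.2, 3.58 and 0 CPM in dark E23 Cre nuclei and 10.1, 5.19, 18.8 and 3.71 CPM in lit ones, where the ranges overlapped almost wholly. In E123 it had 0.849, 0 and 10.2 CPM in the dark and 113, 12.4, 10.2 and 4.19 CPM in the light. The mean response was 1.74 ± 0.69 (adjusted p = 0.352, edgeR) and no member was called (0 of 9 by edgeR and by DESeq2, where 0.350% of all genes were by edgeR, and 1 of 9 at an unadjusted p under 0.05, as 9.31% of all genes). That member was Cdkn1a. Without the high E123 library its response with Cre was 1.08 (unadjusted p = 0.109, edgeR), and the count at the unadjusted limit was 0 of 9. The light response with Cre minus that with dCre is the same contrast as the Cre effect in the light minus that in the dark, given above for Cdkn1a, and both comparisons use the same dark dCre libraries. No member was called in it (0 of 9 by edgeR and by DESeq2, where 0.00486% of all genes were by edgeR), and Cdkn1a was the 1 member of 9 with an unadjusted p under 0.05, as 9.28% of all genes had.

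In order of mean level, the VIP groups ran for Cdkn1a from dark E1 dCre, at 0.0546 ± 0.0946 CPM (SD), over dark E123 dCre (1.23 ± 1.80), dark E23 dCre (2.06 ± 2.18), dark E1 Cre (2.09 ± 1.33) and dark E123 Cre (3.68 ± 5.65) to lit E1 Cre (6.18 ± 4.88) and dark E23 Cre (6.88 ± 6.31). Above these came lit E123 dCre (7.49 ± 6.58), lit E1 dCre (7.54 ± 7.56), lit E23 Cre (9.45 ± 6.81), lit E23 dCre (13.5 ± 5.13) and lit E123 Cre (35.0 ± 52.3). Each step between neighbours in this order was smaller than the SD of the higher group.

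Phlda3 was the next member by p-value in the light response of VIP nuclei, at 1.58 ± 0.53 (adjusted p = 0.0593, edgeR), with medians of 2.90 CPM in lit and 2.13 CPM in dark libraries. In E1 dCre nuclei it was called, with 0, 0 and 0 CPM in the dark and 0, 5.22, 1.13, 2.77 and 0.537 CPM in the light. One lit library was also at 0, so the groups met there, and the pooled level was at least 8.72-fold higher in the light (adjusted p = 0.0440, edgeR). Cdkn1a in the same contrast (adjusted p = 0.0314) was the only other called pair of a member and a light contrast (2 of 54, where 0.712% of all pairs were). Without replicate 1 of dark E1 dCre these adjusted p rose to 0.222 for Phlda3 and 0.148 for Cdkn1a, and without replicate 2 to 0.158 and 0.149 (edgeR). The Phlda3 call held in 2 and the Cdkn1a call in 4 of the 8 fits that left out 1 library of the contrast. At an unadjusted p under 0.05 the count was 8 of 54, where 9.58% of all pairs passed. Lit libraries lay wholly above dark ones in 5 of 54 pairs and below in 0, where 2.85% and 2.29% of all pairs did. Sesn2 in E23 dCre nuclei was one of the 5, at 4.76 CPM or less in each dark library and 7.84 CPM or more in each lit one. In E1 dCre nuclei Sesn2 went the other way, with means of 11.8 CPM in the dark and 5.53 CPM in the light, and the groups overlapped. Its lit mean was the higher in every other line and virus.

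The remaining members gave log2 light responses between -0.19 (Bbc3) and 0.74 (Sesn2) in VIP nuclei, none called. Bax responded by 0.41 ± 0.22 (adjusted p = 0.265), Ccng1 by 0.38 ± 0.24 (adjusted p = 0.391) and Mdm2 by 0.23 ± 0.16 (adjusted p = 0.456, edgeR). Over the 9 members the median was 0.38 against 0.02 over all genes. Without the high E123 library the median was 0.23, the value of Ccng1, while Mdm2 was at 0.01 and Bbc3 at -0.73.

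In total nuclei Cdkn1a rose with light as well. It lay between 5.58 and 36.9 CPM with a median of 10.2 in the 25 lit libraries and between 0 and 8.97 CPM with a median of 2.08 in the 23 dark ones, so that only the lowest lit and highest dark libraries overlapped. The log2 difference was 2.25 ± 0.40 (adjusted p = 8.74e-05, edgeR). With dCre it was 2.55 ± 0.58 (adjusted p = 0.00411) and with Cre 1.95 ± 0.55 (adjusted p = 0.0558, edgeR). The value with dCre was not called without replicates 1 and 2 of dark E1 and dark E123 dCre (1.94, adjusted p = 0.263) or with the balance of long and short genes as a covariate (1.96, adjusted p = 0.0567). The value with Cre was called in 6 of 7 other settings. Bax was the second member called in total nuclei (2 of 9, where 7.78% of all genes were). Its medians were 29.1 CPM in the dark (8.33 to 53.2) and 35.8 CPM in the light (17.4 to 60.3), a log2 difference of 0.44 ± 0.14 (adjusted p = 0.0436, edgeR). The call of Bax held in 3 of 7 other settings and in 23 of 48 fits without 1 library; without replicates 1 and 2 of dark E1 and dark E123 dCre the difference was 0.25 (adjusted p = 0.453). In E1 dCre total nuclei Bax was called by itself too (1 of 9, where 3.68% of all genes were). Against the dark libraries given above, the lit ones had 46.4, 29.1, 38.5, 25.1 and 23.4 CPM, all higher, a log2 difference of 1.28 ± 0.37 (adjusted p = 0.0384, edgeR). This contrast shares its 3 dark libraries with the comparison of Cre with dCre in dark E1 total nuclei. It was called in 2 of 8 fits that left out 1 of its libraries, with adjusted p up to 0.315.

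The light response in VIP nuclei minus that in total nuclei was called for no member (0 of 10 by edgeR and by DESeq2, where 0.0872% of all genes were by edgeR, and 0 of 10 at an unadjusted p under 0.05, as 6.06% of all genes), and for Cdkn1a it was 0.57 ± 0.62, and 0.24 without the high E123 library.

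**Figure D4:**
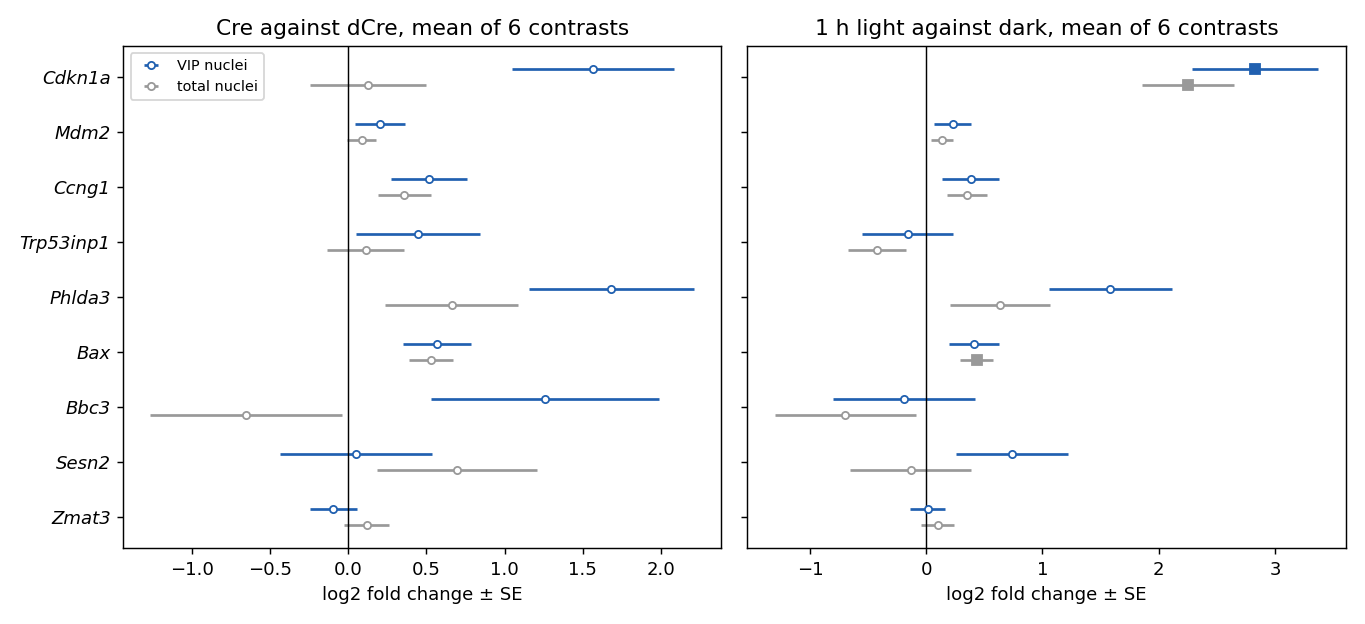
Log2 difference ± SE of the 9 tested members for Cre against dCre and for light against dark, each averaged over 6 contrasts, in VIP nuclei (blue) and total nuclei (grey). Filled squares have an adjusted p under 0.05: Cdkn1a in the light response of both fractions and Bax in that of total nuclei.

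Between fractions, 3 of 10 members differed, where 35.5% of all genes tested did. The count was 5 of 10 with the replicate number as a block. Without the high E123 library it was also 5 of 10, where 8072 of 22926 genes tested were called. Zmat3 was higher in VIP nuclei by 0.51 ± 0.10 (adjusted p = 2.15e-05) and Sesn2 by 1.05 ± 0.36 (adjusted p = 0.0137), and Trp53inp1 was lower, with a log2 difference of -0.63 ± 0.23 (adjusted p = 0.0258, edgeR). Zmat3 had a median of 42.1 CPM in VIP and 30.7 CPM in total libraries on the common scale, Sesn2 5.18 and 2.12, and Trp53inp1 6.21 and 10.2, all with overlapping ranges. Ccng1, at -0.36 ± 0.15 (adjusted p = 0.0538, edgeR), was called in 5 of 7 other settings, the block among them (-0.44, adjusted p = 0.0102), and without the high library (-0.43, adjusted p = 0.0124, edgeR). Mdm2, at -0.18 ± 0.09 (adjusted p = 0.135), became -0.29 without the high E123 library (adjusted p = 0.00103, edgeR). The call of Trp53inp1 was lost without replicate 3 of dark E1 dCre total nuclei (adjusted p = 0.0614). Bax differed by -0.01 ± 0.13.

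Several members moved across the VIP groups with the balance of long and short genes. Over the 12 VIP group means, Pearson's r between a member's mean log2(CPM + 1) and that balance was -0.96 for Bax, -0.79 for Phlda3, -0.71 for Ccng1, -0.62 for Cdkn1a and -0.42 for Mdm2. It was -0.31 for Bbc3, -0.14 for Sesn2, 0.22 for Trp53inp1 and 0.30 for Zmat3, the member with the longest exons. These 12 points share their libraries with each other's scaling, so the values are a description only. Bax (5.20 kb), Phlda3 (3.02 kb), Ccng1 (6.76 kb), Cdkn1a (9.75 kb) and Bbc3 (9.81 kb) are themselves among the short genes that define the balance. The other tested members are longer than 10 kb. With the balance as a covariate, the Cre difference in VIP nuclei became 1.30 for Cdkn1a (adjusted p = 0.892), 0.89 for Phlda3 and 0.06 for Bax. The light response of Cdkn1a was 2.71 with that covariate and was still called (adjusted p = 0.00182).

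**Figure D5:**
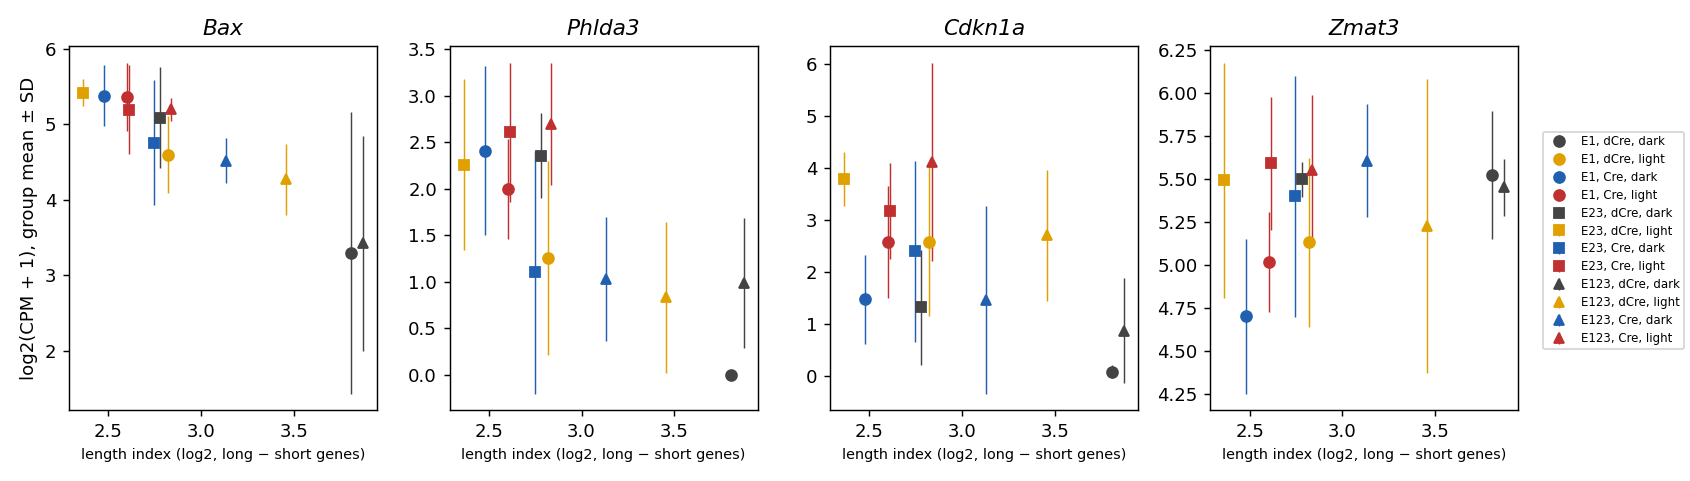
Group mean ± SD of Bax, Phlda3, Cdkn1a and Zmat3, as log2(CPM + 1), against the balance of long and short genes in the 12 VIP groups. Bax falls steadily from the groups with a low balance to the dark E1 and E123 dCre groups on the right, at 3.81 and 3.87, and Zmat3 does not.

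The genes whose group means followed each member most closely were found by Pearson's r over the 12 VIP groups among 12751 genes with a mean of at least 5 CPM. For Cdkn1a they were Mt2 (0.947), Hsph1 (0.932) and Junb (0.932), a metallothionein, a heat-shock chaperone and an AP-1 subunit. For Bax they were Rnf187 (0.987), Cox5b (0.985) and Uqcrq (0.978), the last pair of them subunits of the respiratory chain. For Phlda3 the closest was Blcap (0.953), for Ccng1 Slc27a4 (0.942) and for Mdm2 Nosip (0.900). Among the members themselves, Ccng1 and Phlda3 were closest (0.888), then Phlda3 and Bax (0.874), while Cdkn1a and Mdm2 had 0.322.

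The other genes of the pathway were read from lists set beside the members. In the comparison of Cre with dCre in VIP nuclei, 2 of 26 other p53 targets were called, where 3.74% of all genes were, both higher: Trp53i11, at 0.76 ± 0.21 (adjusted p = 0.0318), and the spindle protein gene Ckap2, at 3.47 ± 0.95 (adjusted p = 0.0338, edgeR). Their log2 differences were positive for 22 of 26, with a median of 0.52 against 0.04 over all genes. None of 12 regulators of p53 was called, with Trp53 at 0.35 ± 0.26 (adjusted p = 0.498), and none of 17 genes of double-strand break repair. None of 16 genes of the BCL2 family and caspases and none of 13 cyclins and their inhibitors was called either. Of 11 genes of the integrated stress response, Atf4, its central transcription factor, was higher by 0.64 ± 0.18 (adjusted p = 0.0351, edgeR). Trp53i11, Ckap2 and Atf4 were not examined singly under the other settings. With the balance of long and short genes as a covariate, no gene at all was called in this comparison. In total nuclei none of these genes was called between Cre and dCre.

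After light in VIP nuclei, where 5.99% of all genes were called, 2 of the 26 other p53 targets were higher: Plk2, an activity-induced kinase, by 0.89 ± 0.18 (adjusted p = 0.00167), and Btg2 by 1.6 ± 0.40 (adjusted p = 0.0116, edgeR). Of the 12 regulators, the damage kinases Atr, at -0.66 ± 0.13 (adjusted p = 0.00138), and Atm, at -0.78 ± 0.22 (adjusted p = 0.0211), fell. In double-strand break repair 3 of 17 genes were lower, Xrcc5, Brca2 and Xrcc4. In the integrated stress response Atf3 (5.37 ± 1.03, adjusted p = 0.000927) and Ddit3 were higher. All 6 genes used as a check of neuronal activity were called higher, among them Nr4a1 at 2.30 ± 0.16 (adjusted p = 4.28e-15, edgeR). The balance of long against short genes was 2.78 ± 0.42 (SD, n = 25) in lit and 3.08 ± 0.69 (n = 23) in dark VIP libraries. Its part in these light responses, Atr and Atm among them, was not tested, and the list genes were not examined singly under the other settings.

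Markers of other cell types also moved in VIP nuclei. Between Cre and dCre, 9 of 9 oligodendrocyte markers and 7 of 8 microglial markers had positive log2 differences, with medians of 0.95 and 0.90. The median over all genes is given with the members above. In both lists 0 were called, where 3.74% of all genes were. Of 7 astrocyte markers only Aldoc was called, and of 10 excitatory markers only Cux2, which was lower. Summed oligodendrocyte markers ran from 68.0 to 1954 CPM over dCre libraries and from 68.8 to 1964 CPM over Cre libraries. Summed endothelial markers ran from 5.02 to 48.5 CPM over dCre libraries and from 1.19 to 454 CPM over Cre libraries. The highest of these values was in replicate 2 of dark E23 Cre, which also had 1061 CPM of oligodendrocyte markers. That replicate held the highest Cdkn1a value of the dark VIP libraries too, 14.2 CPM. With light, 3 of 9 oligodendrocyte, 2 of 7 astrocyte, 2 of 8 microglial and 4 of 6 GABAergic markers were called higher. Of all genes, 5.99% were called in either direction. Summed astrocyte markers ran from 223 to 2648 CPM over lit and from 214 to 723 CPM over dark libraries. Olig2, Cspg4 and Tmem119 were at 0 in 33, 38 and 29 of the 48 VIP libraries. The part of these cell types in the members' values was not tested. Marker genes were not examined singly under the other settings. With the balance of long and short genes as a covariate, no gene was called between Cre and dCre in VIP nuclei.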

How the data were processed

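RNA was measured by a low-input, poly(A)-primed library method (Meso-Seq with Nextera XT) in 96 libraries of sorted nuclei, 3 to 5 per group in 24 groups. The authors deposited whole-number counts per gene, made with cutadapt 1.18, STAR 2.5.3a and HOMER 4.9.1 on build mm10, per the submitters' processing notes. The annotation release, the strand setting and whether intronic reads were counted are not given in the sources used here. Of 55335 genes, 55154 matched the reference annotation, and the 181 others held 0.0225% of counts.

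Counts were tested with edgeR 4.0.16 (limma 3.58.1, R 4.3.3): TMM library sizes, filterByExpr, 1 coefficient per group and the robust quasi-likelihood F test, separately for the 48 VIP and the 48 total libraries, and over all 96 where fractions were compared. P-values were adjusted by Benjamini-Hochberg over all genes tested, with a threshold of 0.05. Errors of log2 differences (SE) are the size of the difference divided by the square root of its quasi-likelihood F. They are approximate where a group has few or no counts. CPM on the log scale has a pseudocount of 1. Depth ran from 1559883 to 9122515 counts, and libraries of a group varied widely (common biological coefficient of variation 0.815 for the VIP and 0.679 for the total libraries), which limits what could be called. No pair of libraries among 148 within groups agreed within sampling noise. The tests were tested on simulated data. Alternatives were DESeq2 1.42.0, total-count library sizes, no filter, sex, replicate number or the balance of long and short genes as a term, the 2 groups of a contrast alone, and leaving out libraries. The members and lists were chosen with earlier results of these data known. All 10 members are named, up to 4 called genes with the smallest p of each other list, and for likeness the genes with the highest r (up to 3 a member); single libraries and genes outside this rule were chosen after their values were seen. Virus, flp and the deleted enhancers were not analysed here.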

Additional observations from a re-analysis of the deposited data

Results flagged for a closer look

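Within the 180 combinations of a tested member and a group of 4 or 5 libraries, 9 had a highest or lowest library that stood off from the others by more than Dixon's 95% limit on the log2(CPM + 1) scale. Chance flags about 1 in 20, which over 180 comes to 9. Among VIP nuclei, Mdm2 stood at 344 CPM in replicate 1 of lit E123 Cre, where the other 3 libraries had 43.4 to 58.0 CPM. It stood at 34.0 CPM in replicate 2 of lit E1 dCre, below 65.5 to 84.3 CPM in the other 4. Ccng1 stood at 80.2 CPM in replicate 1 of dark E1 Cre, against 12.7 to 19.8 CPM. Phlda3 stood at 0.767 CPM in replicate 2 of the same group, against 4.91 to 7.31 CPM. Bax stood at 10.4 CPM in replicate 1 of dark E23 Cre, against 33.8 to 37.0 CPM.

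Among total nuclei, Ccng1 stood at 17.4 CPM in replicate 2 of dark E23 Cre, against 35.2 to 36.8 CPM in the other 3. Bax stood at 60.3 CPM in replicate 3 of lit E23 dCre, against 34.5 to 37.1 CPM. Bbc3, with very few counts, stood at 0.271 CPM in replicate 3 of lit E1 dCre, against 1.33 to 1.77 CPM. Zmat3 stood at 24.3 CPM in replicate 1 of lit E23 Cre, against 38.9 to 41.7 CPM. The library of lit E123 Cre VIP nuclei is the only one of the 9 that was also highest over its whole fraction for most members.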

How the results depend on the processing

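Counts of members called are given as reported and then under each setting that moved them by over 1.5 times. For Cre against dCre in VIP nuclei, averaged, 0 became 1 with no filter, with library sizes from total counts, with sex as a covariate and with DESeq2, and 0 to 2 without 1 library. In total nuclei 0 became 0 to 1 without 1 library. Over the 6 single Cre contrasts in VIP nuclei, 1 became 2 with the replicate block, 2 with no filter, 3 with DESeq2, 0 without replicates 1 and 2 of dark E1 and E123 dCre, 0 with only the 2 groups of each contrast, and 0 to 2 without 1 library. For light in VIP nuclei, 1 became 2 with DESeq2 and 1 to 2 without 1 library. With dCre alone it was 0 without the 4 dark dCre libraries and 1 to 2 without 1 library. For light in total nuclei, 2 became 1 with no filter, total-count sizes, the 4 libraries left out or the balance covariate, and 1 to 3 without 1 library. Over the 6 single light contrasts, 2 became 1 with no filter or with sex, 0 without the 4 libraries or with only the 2 groups, and 0 to 2 without 1 library. Between fractions, 3 became 5 with the replicate block and with total-count sizes, and 2 to 5 without 1 library.

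Without replicate 1 of lit E123 Cre VIP nuclei, Mdm2 turned from 1.27 to -0.018 for Cre in lit E123 (-0.018 to 1.55 over the fits without 1 library) and from 0.97 to -0.32 for light in E123 Cre (-0.32 to 1.25). The causes of these shifts were not tested. Cdkn1a in the light response was called in 7 of 7 other settings and 48 of 48 fits without 1 library in VIP nuclei. Over all genes, calls for Cre in VIP nuclei went from 769 to 3 without the 4 dark dCre libraries, 0 with the balance covariate, 1443 with no filter and 1503 with DESeq2. Calls for light in VIP nuclei went from 1234 to 345, 545 and 1859 without the 4 libraries, with the covariate and with DESeq2, and with dCre from 1290 to 46, 147 and 2044. With Cre they went from 72 to 229 with no filter, 178 with the covariate and 185 with DESeq2. The light response with Cre minus with dCre went from 1 to 144 with no filter and 23 with DESeq2, and to 0 with the block, total-count sizes, sex, the covariate or the 4 libraries left out. In total nuclei, calls for Cre went from 6 to 284 with no filter and 42 with DESeq2, and to 0 with the covariate or without the 4 libraries, and calls for light from 1651 to 757 without the 4 libraries and 1093 with the covariate. For the Cre effect in VIP minus total nuclei, 4 became 1 with the block, 16 with DESeq2 and 0 without the 4 libraries, and for light in VIP minus total nuclei 20 became 35 with total-count sizes, 43 with the covariate, 89 with DESeq2 and 2 without the 4 libraries.

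The replicate numbers did not pair libraries of different viruses or light conditions: deviations of same-numbered VIP libraries correlated over 0.1 in 4 of 22 and 6 of 22 pairs. Between VIP and total nuclei 26 of 48 did (-0.07 to 0.50), and 32 of 48 libraries correlated best with their own number. The sex labels also match in 48 of 48 same-numbered libraries, but the labels name no animals, so this is a hint. Fits without 1 library kept the genes, scaling and dispersion trend of the full fit. Single contrasts were not fitted with the covariate. Low counts limit Eda2r, Bbc3 and Phlda3, where a library's 0 does not show absence.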
